A study of Homo sapiens with 20 samples.

Results

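Tumorspheres of the KOd pool were compared with tumorspheres of wild-type cells of SUM159PT, an established triple-negative breast cancer line, by mRNA sequencing. The comparison takes 6 of the series' 20 libraries, 3 of KOd 3D and 3 of wt 3D, chosen by the condition in their titles and not by any measured value. KOd cells carry a deletion of exon 1 of NNMT made with 2 guide RNAs, and the KOd pool is oligoclonal, a mixture of several edited clones. The wt cells had received no guide RNA as far as the labels say, and they are not stated to be cloned. A difference between KOd and wt therefore holds the loss of NNMT together with whatever set the chosen clones apart from the parental population, and these cannot be told apart from these 6 libraries. Both groups were grown as secondary spheres (3D): cells were kept in suspension on ultra-low attachment plates for 6 days, dissociated and plated again for 6 more days in medium with EGF and bFGF. Adherent cells of the same genotypes (KOd 2D and wt 2D, 3 libraries each) grew in medium with 5% serum, insulin and hydrocortisone, so 2D and 3D differ in medium as well as in attachment. Spheres of a further pool, KOs (3 libraries), made with 1 guide RNA at the transcription start site of NNMT, are drawn on only where they bear on KOd. Libraries of one condition carry the letters A, B and C. They are not stated to be separate cultures, so each p-value reflects only how far these libraries scatter, which may be technical.

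NNMT is a cytosolic enzyme that transfers the methyl group of S-adenosylmethionine to nicotinamide, which links the methyl donor pool to the recycling of nicotinamide into NAD. It is abundant in many mesenchymal-like carcinomas and in cancer-associated fibroblasts. Growth as spheres in suspension is a common assay of cells that survive without attachment, and SUM159PT, a basal, mesenchymal-like line, forms them readily.

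The 6 libraries held between 27810953 and 32016875 reads assigned to genes. Expression is given below as CPM, the reads of a gene scaled to a common library size after TMM normalisation, which removes differences in library composition. CPM does not correct for gene length, so values are compared between groups and not between genes. Reads of ribosomal RNA genes made up 3.20, 2.82 and 5.33% of the KOd libraries and 5.27, 5.32 and 8.46% of the wt libraries. In each group library C stood apart from A and B. The SD across genes of the log2 difference between A and B was 0.297 in KOd and 0.307 in wt, against 0.474 to 0.475 for pairs with C in KOd and 0.594 to 0.614 for pairs with C in wt. All 7 markers set for the line (VIM, CD44, EGFR, KRT8, KRT18, AXL and CAV1) were expressed in both groups. Many defining markers of other cells were absent: CD2, MS4A1, TYROBP and NKG7 of leukocytes, CLDN5 of endothelium, ELAVL4, NEFL, NEFM, STMN2 and OLIG2 of neural cells, and ADIPOQ and LEP of adipocytes had 0 reads in all 6 libraries.

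NNMT itself (Entrez 4837, chr11:114257806-114313536 in GRCh38) was measured at 4.65, 5.18 and 5.64 CPM in KOd spheres and at 85.7, 79.5 and 130 CPM in wt spheres. The groups were far apart, and low NNMT RNA remained in each KOd library. The mean was 5.15 ± 0.497 CPM in KOd spheres and 98.4 ± 27.5 CPM in wt spheres (SD, n = 3 each), a log2 fold change of -4.26 ± 0.20 (SE), with an adjusted p of 7.1e-11 in edgeR's quasi-likelihood test with Benjamini-Hochberg adjustment over 16323 genes. This test and adjustment stand behind every adjusted p below, and a gene is said to rise, fall or change only where that p is under 0.05. Adherent cells gave much the same picture, with 4.55 ± 0.139 CPM in KOd 2D and 117 ± 13.3 CPM in wt 2D (SD, n = 3 each). The knockout effect on NNMT in 3D minus that in 2D was 0.43 on the log2 scale and did not pass (adjusted p = 0.25).

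Neighbours of NNMT on chromosome 11 did not move as a block. Of 12 other tested genes within 1 Mb, 1 fell, 2 rose and 9 did not pass. TTC12, 1 of the 9, stood at 0.33 (adjusted p = 0.052) and passed with the replicate letter as a block (0.34, adjusted p = 0.038), under DESeq2, limma-voom and library totals, and without wt B. C11orf71, another, passed with library totals. CADM1, a cell adhesion molecule of the immunoglobulin family (chr11:115169236-115504415), had 0.275, 0.16 and 0.035 CPM in KOd spheres and 58.8, 62.6 and 41.3 CPM in wt spheres. Its RNA was nearly absent from KOd (log2 fold change -8.36 ± 0.48, adjusted p = 3.2e-09). HTR3A, a serotonin-gated ion channel subunit, had 2.38, 2.17 and 0.981 CPM in KOd spheres and 0.0969, 0.101 and 0.105 CPM in wt spheres, a rise of 4.15 ± 0.53. ZBTB16, the zinc-finger repressor whose gene ends next to NNMT, rose by 0.94 ± 0.27 (adjusted p = 0.011). Its RNA was 15.1, 12 and 13.9 CPM in KOd spheres and 5.62, 4.7 and 11 CPM in wt spheres, without overlap, and it did not pass without wt A or wt B (adjusted p of up to 0.062). RBM7 (-0.01), REXO2 (0.02), ZW10 (-0.00) and USP28 (-0.11) lay close to zero on the log2 scale and did not pass.

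Across all genes, KOd spheres differed widely from wt spheres. The test called 5548 of 16323 genes, 34.0%, with 2689 rises (16.5%) and 2859 falls (17.5%), and these shares are the background for the member counts below. A change of at least 2-fold was found in 2113 genes (12.9%), of which 1121 rose and 992 fell. In 7449 genes (45.6%) the 3 KOd values and the 3 wt values did not overlap. Direction depends on scaling. With library totals in place of TMM the median log2 fold change of all genes was 0.158 in place of 0.003, and the calls split into 4199 rises and 1793 falls of 5992, so that 70.1% were rises in place of 48.5%. Small shifts shared by a whole list are therefore less firm than large ones.

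**Figure D1:**
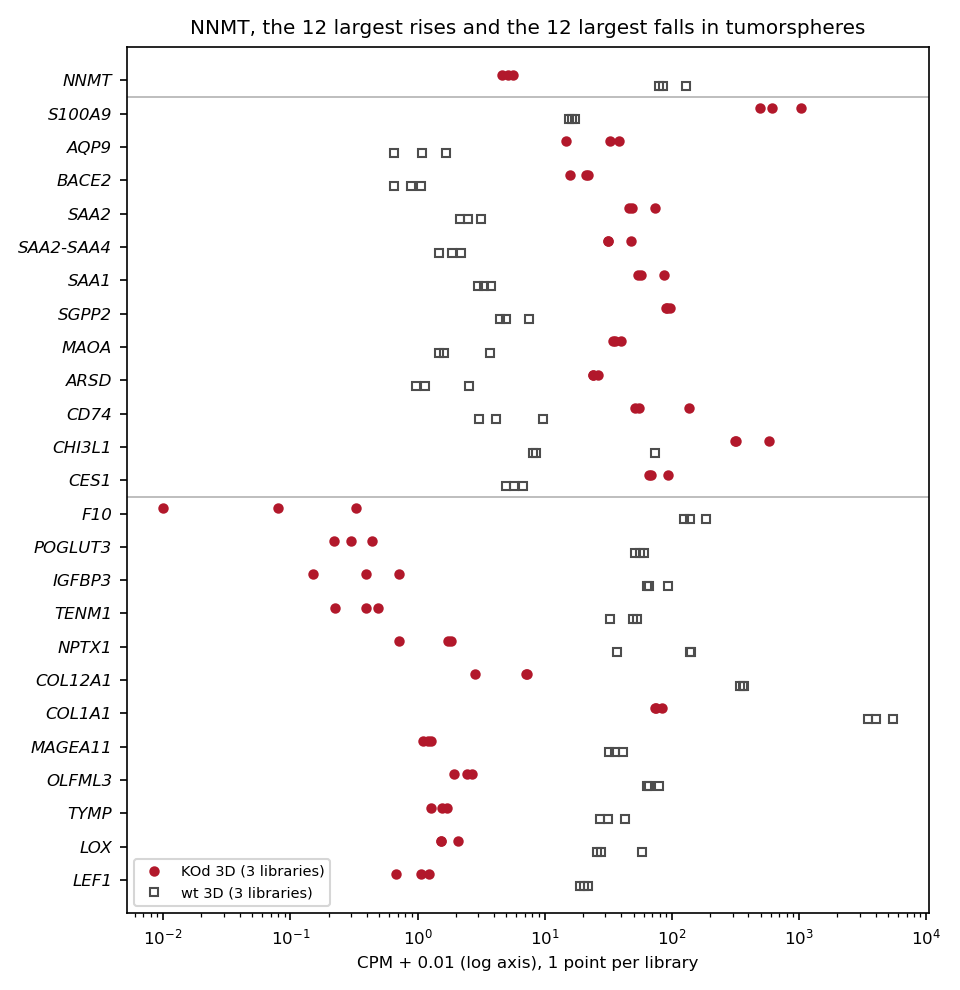
CPM in each tumorsphere library, on a log axis after adding 0.01, for NNMT and for the 12 largest rises and the 12 largest falls among well-expressed genes, whose log2 CPM averaged 2 or more over these libraries (circles, KOd 3D; squares, wt 3D). The groups do not overlap for any gene shown, which the choice of genes required; F10 lies at or below 0.319 CPM in KOd spheres and at or above 125 CPM in wt spheres, while S100A9 lies at or above 492 CPM in KOd spheres and at or below 17.4 CPM in wt spheres.

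Among well-expressed genes, by the same limit over the 6 libraries, the largest fall was that of F10. F10, coagulation factor X (Entrez 2159, chr13:113122799-113149529), had 0, 0.319 and 0.0701 CPM in KOd spheres and 139, 125 and 185 CPM in wt spheres. It was close to silent in KOd (log2 fold change -10.13 ± 0.40, adjusted p = 1.1e-11), and it had also fallen in adherent cells, by 7.72 on the log2 scale. IGFBP3, which binds insulin-like growth factors outside the cell, had 0.703, 0.383 and 0.14 CPM in KOd spheres and 63.6, 65.8 and 93.8 CPM in wt spheres, a fold change of -7.46 ± 0.34 on the log2 scale. POGLUT3, which glucosylates EGF-like repeats of secreted and membrane proteins, had 0.428, 0.288 and 0.21 CPM in KOd spheres and 51.5, 60.1 and 56.5 CPM in wt spheres. In F10, IGFBP3 and POGLUT3 alike every KOd library lay far below every wt library. TENM1, a teneurin, changed by -6.96 ± 0.32, and NPTX1, a neuronal pentraxin, by -6.20 ± 0.45. MAGEA11, a cancer-testis antigen and co-regulator of the androgen receptor, changed by -4.93 ± 0.20, OLFML3, a secreted olfactomedin-like protein, by -4.88 ± 0.73, and TYMP, thymidine phosphorylase, by -4.48 ± 0.29. LEF1, a transcription factor that acts with beta-catenin in Wnt signalling, had 0.672, 1.05 and 1.23 CPM in KOd spheres and 19.1, 20.2 and 22.1 CPM in wt spheres (-4.38 ± 0.29, adjusted p = 3.3e-09). Both sets of values were tight and far apart. COL12A1, COL1A1 and LOX complete the 12 and are described with the matrix genes.

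The largest rise among well-expressed genes was that of S100A9, which pairs with S100A8 as calprotectin, an alarmin of epithelia and myeloid cells. S100A9 (Entrez 6280, chr1:153357854-153361023) had 492, 608 and 1035 CPM in KOd spheres and 16.5, 15.4 and 17.4 CPM in wt spheres. The lowest KOd library exceeded the highest wt library by far (log2 fold change 5.44 ± 0.28, adjusted p = 1.5e-10). AQP9, a channel for water and glycerol, had 32.8, 38.2 and 14.6 CPM in KOd spheres and 1.07, 0.638 and 1.67 CPM in wt spheres, a rise of 4.67 ± 0.32. SAA1, a serum amyloid A protein of the acute phase, had 57.1, 54.6 and 86.5 CPM in KOd spheres and 3, 3.33 and 3.8 CPM in wt spheres (4.29 ± 0.28, adjusted p = 2.7e-09). SAA2 rose by 4.42 ± 0.32. SAA1 and SAA2 are near-identical neighbours, and SAA2-SAA4 (4.33 ± 0.31) is a readthrough gene that overlaps SAA2, so how their reads were shared out is uncertain. Several of the other rises were of enzymes. BACE2, an aspartyl protease related to beta-secretase, rose by 4.53 ± 0.23, SGPP2, a sphingosine-1-phosphate phosphatase, by 4.05 ± 0.68, ARSD, an arylsulfatase, by 4.00 ± 0.39, and CES1, a carboxylesterase, by 3.70 ± 0.19. MAOA, the monoamine oxidase of the outer mitochondrial membrane, had 35.7, 34.4 and 40 CPM in KOd spheres and 1.61, 1.48 and 3.69 CPM in wt spheres, a rise of 4.03 ± 0.30. CD74, the invariant chain of MHC class II, rose by 3.86 ± 0.40. CHI3L1, a secreted chitinase-like protein, had 319, 313 and 580 CPM in KOd spheres and 8.46, 8.03 and 73.6 CPM in wt spheres, where library C was the high one (3.75 ± 0.62, adjusted p = 0.00014).

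The promoters of S100A9 and F10 are shown as a pair, since these well-expressed genes had the largest rise and the largest fall. Each is the RefSeq window of GRCh38.p14 from 250 bases before to 50 bases after the annotated start, written 5′ to 3′ on the gene's strand, with every CpG dinucleotide in capitals. Both genes lie on the plus strand, S100A9 with its window at chr1:153357604-153357903 and F10 at chr13:113122549-113122848.
S100A9: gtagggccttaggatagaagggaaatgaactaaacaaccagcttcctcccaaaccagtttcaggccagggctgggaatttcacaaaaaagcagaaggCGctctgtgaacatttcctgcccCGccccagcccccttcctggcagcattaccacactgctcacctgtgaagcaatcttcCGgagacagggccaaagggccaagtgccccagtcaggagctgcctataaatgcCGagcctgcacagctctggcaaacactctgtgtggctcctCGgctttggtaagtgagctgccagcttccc
F10: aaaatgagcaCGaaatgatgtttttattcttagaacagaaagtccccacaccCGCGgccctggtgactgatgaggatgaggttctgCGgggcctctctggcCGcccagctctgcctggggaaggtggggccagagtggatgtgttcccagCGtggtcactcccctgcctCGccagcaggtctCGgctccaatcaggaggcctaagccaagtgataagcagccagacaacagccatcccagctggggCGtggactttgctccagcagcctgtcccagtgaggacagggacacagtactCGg
S100A9 has 5 CpG in this window, 0.218 of the number its base composition gives, and F10 has 10, at 0.379. Across the 12494 tested genes with such a window the median of this ratio was 0.819, and 77.2% of them had a ratio of at least 0.6. Of the 12 well-expressed genes with the largest rises, 6 had a window, with a median ratio of 0.258 and 1 at 0.6 or above. Of the 12 with the largest falls, 10 had a window, with a median of 0.708 and 7 at 0.6 or above.

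Matrix genes fell broadly. Of 26 tested collagen genes 19 fell and 2 rose, with a median log2 fold change of -1.30, against 17.5% falls and a median of 0.003 over all genes. COL1A1, the alpha-1 chain of type I collagen (Entrez 1277, chr17:50184101-50201631), had 84.2, 73.6 and 75.3 CPM in KOd spheres and 4045, 3517 and 5437 CPM in wt spheres. The KOd values were tight and far below all wt values (-5.80 ± 0.24, adjusted p = 1.4e-11). Its partner chain COL1A2 had 0.0611, 0.224 and 0.21 CPM in KOd spheres and 32.8, 27.1 and 48.4 CPM in wt spheres, a log2 fold change of -7.76 ± 0.45. COL12A1, a fibril-associated collagen, had 7.15, 7.19 and 2.8 CPM in KOd spheres and 364, 366 and 345 CPM in wt spheres (-5.96 ± 0.40). Among basement membrane collagens COL4A1 had 32.2, 25.8 and 16.1 CPM in KOd spheres and 379, 347 and 274 CPM in wt spheres, a change of -3.75, and the paired chain COL4A2 changed by -3.19. The type V chains COL5A1, COL5A2 and COL5A3 changed by -1.33, -2.79 and -4.35, and the abundant type VI chain COL6A3 by -1.92. COL3A1 had 1359, 1231 and 2099.6 CPM in KOd spheres and 2443, 2353 and 6432 CPM in wt spheres. It lay lower in KOd without overlap and did not pass (-1.26 ± 0.63, adjusted p = 0.14), though it did under limma-voom (0.046) and in the 2 groups alone (0.0495). The summed collagen RNA was 8342, 7199 and 8010 CPM in KOd spheres and 23848, 21480 and 31157 CPM in wt spheres. The 2 collagens that rose were COL14A1 (1.12) and COL17A1 (0.99), a hemidesmosomal collagen of basal epithelium. Fewer than 2 rises passed without any 1 of KOd A, KOd B, KOd C, wt A or wt B, without both C libraries, or under DESeq2.

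Enzymes that modify and cross-link collagen followed, with 11 of 16 falls and 1 rise. LOX, lysyl oxidase, which cross-links collagen and elastin, had 2.08, 1.53 and 1.51 CPM in KOd spheres and 25.7, 27.9 and 58.5 CPM in wt spheres. Its KOd values were all low, and wt C was the highest of the wt values (-4.45 ± 0.36, adjusted p = 3.6e-08). LOXL2 changed by -1.92, PLOD2, a lysyl hydroxylase, by -1.39, and P4HA2, a subunit of prolyl 4-hydroxylase, by -1.31. ADAMTS2, a procollagen N-propeptidase, was the single rise, at 29.8, 29.1 and 28.3 CPM in KOd spheres and 3.04, 2.79 and 5.61 CPM in wt spheres (2.93). Laminins, proteoglycans and matricellular proteins split more evenly, with 25 of 41 falls and 10 rises. SPARC, a matricellular collagen-binding protein, had 971, 1019 and 968 CPM in KOd spheres and 3081, 3057 and 4558 CPM in wt spheres, a change of -1.85. DCN, the small proteoglycan decorin, had 3.88, 5.14 and 3.47 CPM in KOd spheres and 44.9, 45.6 and 31.2 CPM in wt spheres (-3.28 ± 0.17). FN1, fibronectin, had the most reads of any gene in every sphere library. It did not pass (-0.02, adjusted p = 0.94), with 37542, 32970 and 28428 CPM in KOd spheres and 33589, 33061 and 33970 CPM in wt spheres.

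Matrix proteases and their inhibitors moved in both directions, with 8 of 26 rises and 11 falls. TIMP3, a matrix-bound inhibitor of metalloproteinases, had 1400, 1351 and 1608 CPM in KOd spheres and 100.1, 104.7 and 189 CPM in wt spheres, a rise of 3.47 ± 0.23. MMP3, stromelysin, had 7.15, 7.03 and 2.31 CPM in KOd spheres and 0.904, 0.84 and 0.732 CPM in wt spheres, also higher in each KOd library (2.73). ADAMTS1, an aggrecan-cleaving protease, changed by -2.86 and SERPINE2, an inhibitor of serine proteases, by -1.61. Integrins, the receptors that bind this matrix, fell in 9 of 15 and rose in 3. ITGA1, the alpha subunit of a collagen receptor, changed by -1.94, ITGAV by -1.19 and the common beta-1 subunit ITGB1 by -0.69. ITGAV had 204, 198 and 204 CPM in KOd spheres and 430, 459 and 492 CPM in wt spheres. The 3 rises were ITGA6 (0.57), ITGA3 (0.31) and ITGB4 (1.72). ITGA6 and ITGB4 form the laminin receptor of hemidesmosomes, and ITGB4 had 118, 97.1 and 154 CPM in KOd spheres and 28.6, 25.4 and 58.3 CPM in wt spheres.

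**Figure D2:**
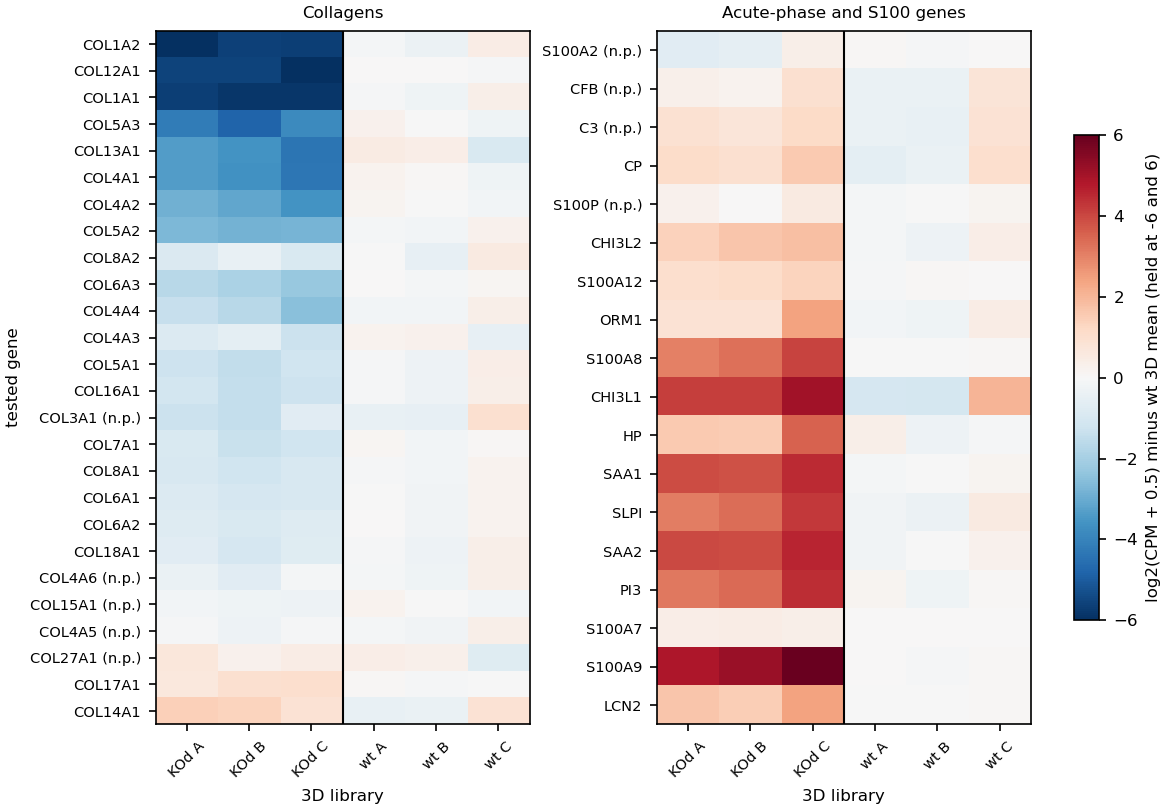
Log2(CPM + 0.5) of each gene in each tumorsphere library minus the mean of the 3 wt 3D libraries, with colours held at -6 and 6, for collagens and for most of the acute-phase and S100 genes (KOd 3D columns left, wt 3D columns right; n.p., not past the threshold of adjusted p 0.05). Most collagens lie below the wt mean in all 3 KOd libraries, with COL1A1 and COL12A1 among the lowest, and most acute-phase genes lie above it, with S100A9 and SAA1 among the highest.

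Transcription factors and receptors that go with a mesenchymal state, and genes listed for TGF-beta, YAP and Wnt signalling, fell more often than they rose. The TGF-beta and Wnt lists hold ligands and antagonists as well as targets, and the activity of the pathways was not measured. TGF-beta is held latent in the matrix by LTBP proteins and signals through SMADs, YAP and TAZ respond to cell shape and stiffness, and Wnt ligands act through frizzled receptors on LEF and TCF factors. Of 19 mesenchymal regulators 10 fell and 0 rose (median -0.73). SNAI2, the transcriptional repressor Slug, had 20, 20.9 and 18.7 CPM in KOd spheres and 70.5, 75.4 and 70.2 CPM in wt spheres, tight in both groups (-1.86). VIM, vimentin, changed by -0.76, ZEB1 by -0.73, TWIST2 by -1.57 and TCF4 by -1.70. With library totals, with the replicate letter as a block or without wt C, 1 mesenchymal regulator rose.

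Of 19 genes of the TGF-beta list 13 fell and 2 rose (median -0.82). The ligands TGFB1 (-0.60) and TGFB2 (-2.45) fell, TGFB1 not passing with the 2 groups alone (adjusted p = 0.058), and TGFB3 (0.65) and the receptor TGFBR1 (0.42) were the rises, of which 1 was lost without KOd A, KOd B or wt A. The latent binding proteins LTBP1 and LTBP2 changed by -1.43 and -2.69. PMEPA1, a target that dampens the signal, had 3.67, 3.32 and 4.87 CPM in KOd spheres and 33.2, 33.4 and 34.7 CPM in wt spheres (-3.10, adjusted p = 3.1e-10). The list of YAP and TAZ targets had 15 falls and 0 rises among 25 genes (median -0.52). CCN1, a matricellular target of YAP, had 12, 13.1 and 12.7 CPM in KOd spheres and 40.5, 41 and 50.3 CPM in wt spheres, with no overlap (-1.81). CCN2 changed by -1.38 and the RhoGAP DLC1 by -1.77, and IGFBP3 and NT5E, named elsewhere here, belong to this list as well. ANKRD1 stood at 2.79 and did not pass (adjusted p = 0.062). Library totals gave 2 rises in this list, and DESeq2, the 2 groups compared alone and the fit without KOd C gave 1 each.

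In the Wnt list 17 of 31 genes fell and 1, the ligand WNT3 (0.88), rose (median -0.74). TNFRSF19, a receptor known as a Wnt target, had 12.7, 13.6 and 12.4 CPM in KOd spheres and 180, 198 and 214 CPM in wt spheres. The values were tight within each group and far apart (-3.93, adjusted p = 1.5e-10). SFRP1, a secreted Wnt antagonist, had 0.0917, 0.0958 and 0.0701 CPM in KOd spheres and 2.65, 3.19 and 3.73 CPM in wt spheres, a change of -5.14. The ligands WNT5A (-1.13), WNT7B (-1.74) and WNT10A (-2.54) fell. AXIN2, the most widely used target of beta-catenin signalling, did not pass (-0.33, adjusted p = 0.26). DKK1, a secreted antagonist, passed (-1.38, adjusted p = 0.025) but not under limma-voom, in the 2 groups alone, or without KOd C, wt A or wt B, where the adjusted p reached 0.10. Without KOd C or without wt C the Wnt list had 2 rises, and with library totals 3. In the BMP list 8 of 17 fell and 2 rose, with 1 rise without KOd B, KOd C, wt B, wt C or both C libraries, or with the 2 groups alone. In the Notch list 4 of 17 fell and 1 rose, a share near the background, with 2 rises without KOd B or KOd C or under DESeq2, 3 with library totals, and 7 falls under limma-voom. Of 23 semaphorin, netrin and Slit genes 10 fell and 4 rose. UNC5C, a netrin receptor, had 0.0917, 0.0958 and 0.14 CPM in KOd spheres and 5.65, 6.01 and 4.67 CPM in wt spheres (-5.60), and ROBO1, a Slit receptor, changed by -1.76.

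**Figure D3:**
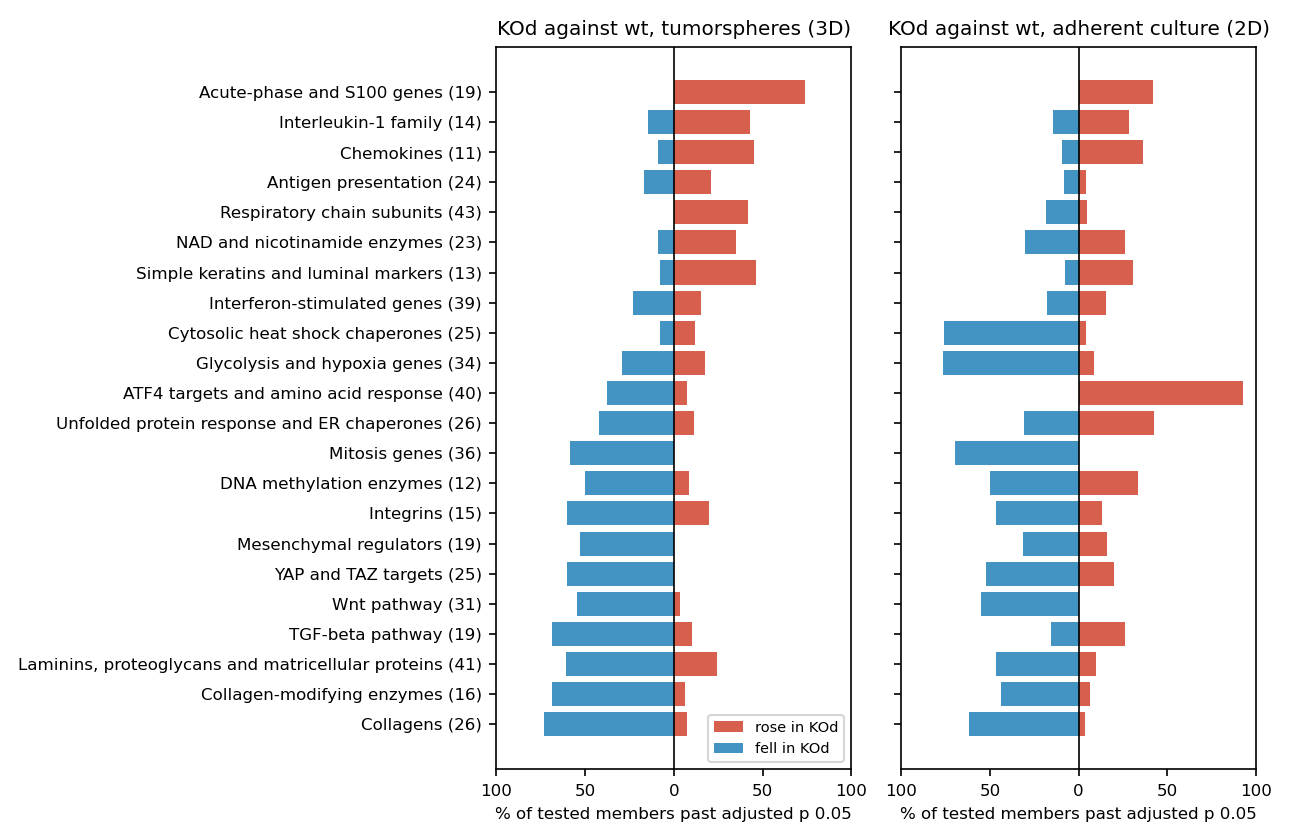
Percentage of tested members of 22 gene lists that rose or fell at an adjusted p under 0.05, for KOd 3D against wt 3D (left panel) and KOd 2D against wt 2D (right panel). In spheres 14 of 19 acute-phase and S100 genes rose and 19 of 26 collagens fell; 15 of 40 ATF4 targets fell in spheres, whereas 37 of 40 rose in adherent cells.

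Acute-phase and S100 genes rose together. These are secreted defence proteins, calcium-binding alarmins and protease inhibitors that epithelia and liver make under inflammatory cytokines. In this list 14 of 19 genes rose and 0 fell, with a median of 3.55, against 16.5% rises over all genes. S100A8 had 178, 214 and 355 CPM in KOd spheres and 20.8, 20.8 and 22.3 CPM in wt spheres, a rise of 3.55 ± 0.33, as its partner S100A9 also rose. Their summed RNA with the remainder of the list was 3872, 3728 and 5563 CPM in KOd spheres and 1420, 1394 and 3004 CPM in wt spheres, library C being the highest of each group. PI3, the elastase inhibitor elafin, rose by 4.48, SLPI, a related inhibitor, by 4.34, HP, haptoglobin, by 4.05 and CP, ceruloplasmin, by 1.08. LCN2, the siderophore-binding lipocalin, had 1.1, 0.927 and 2.24 CPM in KOd spheres and 0, 0 and 0.0349 CPM in wt spheres. Complement genes named here did not pass: C3, the central component, had 2297, 2019.5 and 2722 CPM in KOd spheres and 927, 893 and 2240 CPM in wt spheres (adjusted p = 0.14), with wt C inside the KOd range. CFB stood at 0.43, not past the threshold.

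Cytokines moved less evenly. In the interleukin-1 family 6 of 14 genes rose and 2 fell. IL1B had 15.5, 17.2 and 10.4 CPM in KOd spheres and 6.2, 5.88 and 4.11 CPM in wt spheres (1.41), and IL1A rose by 0.97. IL36B had 11.3, 13.2 and 4.13 CPM in KOd spheres and 0.323, 0.47 and 0.488 CPM in wt spheres, a rise of 4.48. The antagonists IL1RN (3.55) and IL36RN (5.62) rose too, so agonists and antagonists of these receptors were higher in the same libraries. IL1RAP, the shared accessory receptor, changed by -0.75 and SIGIRR, an inhibitory receptor, by -1.27. Of 11 chemokines 5 rose and 1 fell. CCL5 had 27.3, 30.8 and 52.3 CPM in KOd spheres and 4.65, 4.7 and 13 CPM in wt spheres (2.31). CX3CL1 rose by 1.89 and CCL20 by 1.05. CXCL8, the neutrophil chemokine, did not pass (-0.59). CXCL12, a homing chemokine of stroma, had 0.306, 0.192 and 0.14 CPM in KOd spheres and 4.68, 4.7 and 14.9 CPM in wt spheres (-5.21). CXCL1 joined the falls without KOd C, without wt C or without both. In the list of NF-kB subunits and feedback targets 6 of 21 rose and 4 fell, with 3 rises without KOd A. In the IL-6 family and colony-stimulating factors 2 of 14 rose and 4 fell, with 1 rise without KOd C, 0 rises without both C libraries, and 2 falls without wt B or with library totals.

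Antigen presentation divided between its classes. The 5 rises among 24 genes were all of class II: CD74, HLA-DRA, HLA-DRB1, HLA-DPA1 and HLA-DMA. HLA-DRA, the alpha chain of HLA-DR, had 7.03, 6.8 and 18.9 CPM in KOd spheres and 1.29, 0.806 and 1.71 CPM in wt spheres (3.10), and HLA-DMA, which helps load peptides, rose by 1.36. CD74 had 54.8, 51 and 137 CPM in KOd spheres and 4.13, 3.02 and 9.62 CPM in wt spheres, with C the highest in both groups. B2M, the light chain of class I, did not pass (0.11), and the immunoproteasome subunits PSMB9 (-0.56) and PSMB10 (-0.28) and the trimming peptidases ERAP1 (-0.38) and ERAP2 (-0.59) fell. Without wt C the list had 11 rises and 2 falls, with library totals 8 rises and 2 falls, and without KOd A 2 falls. Of 39 interferon-stimulated genes 6 rose and 9 fell, near the background in each direction. ISG15 had 31.9, 37.2 and 48.6 CPM in KOd spheres and 14.3, 11.5 and 16.4 CPM in wt spheres (1.48), and RSAD2, IFIT1 and IFIT2 rose by 3.55, 1.79 and 2.04. EPSTI1 (-2.82), GBP1 (-1.01) and USP18 (-1.01) fell. Without KOd A or KOd B, or with library totals, 4 of these genes fell, and without wt C 5.

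In the pathways that NNMT joins, NAMPT, the enzyme that recycles nicotinamide, rose, and most genes of methyl metabolism did not pass. Of 23 NAD and nicotinamide genes 8 rose and 2 fell, NNMT being 1 of the falls. NAMPT, which recycles nicotinamide to NMN and so uses the same substrate as NNMT, had 250.3, 274 and 312 CPM in KOd spheres and 109.95, 124 and 107 CPM in wt spheres. The 2 groups were well apart, a rise of 1.29 ± 0.13. In KOs spheres, where NNMT RNA averaged 84.8 CPM, NAMPT averaged 529 CPM and rose by 2.22 over wt. NADK, which makes NADP, rose by 0.53, NMNAT1 by 0.57 and SIRT3, the mitochondrial deacetylase, by 0.48. NT5E, the surface nucleotidase CD73, changed by -0.96. The number of rises was 4 without KOd A or KOd B and 5 without wt B, and the number of falls was 4 without wt C. Without both C libraries 5 rose and 4 fell. Of 21 methionine and methyl donor genes 4 rose and 1 fell, and with library totals 8 rose. MAT2A, which makes S-adenosylmethionine (0.17), and AHCY, which clears S-adenosylhomocysteine (0.08), did not pass, though AHCY did with library totals (0.24, adjusted p = 0.010). Of 24 genes of the H3K27 and H3K9 methylation machinery 3 rose and 2 fell, below the background in both directions, with 1 rise without KOd A, KOd C, wt B or wt C, 1 fall without KOd B, KOd C, wt A or wt B, 5 falls without wt C or without both C libraries, and 6 rises and 1 fall with library totals. DNA methylation enzymes leaned down, with 6 of 12 falls and 1 rise. The dioxygenases TET1 (-1.56) and TET3 (-0.82) and the methyltransferase DNMT3B (-0.93) fell, and the maintenance enzyme DNMT1 did not pass (-0.25), though it did without wt C (-0.46, adjusted p = 0.0092).

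Genes of mitosis fell, and the size of that fall depended on single libraries. Of 36 mitosis genes 21 fell and 0 rose (median -0.48). Their summed RNA was 1821, 1896 and 1880 CPM in KOd spheres and 2982, 3112 and 1655 CPM in wt spheres, so wt A and wt B lay well above all KOd libraries and wt C below them. CDC20, an activator of the anaphase-promoting complex, had 46.1, 51.1 and 57.5 CPM in KOd spheres and 106, 93.3 and 60.9 CPM in wt spheres (-0.75), and the kinesin KIF20A changed by -0.92. The number of falls was 33 without wt C, 32 without both C libraries, 12 without wt A, 11 without wt B, 11 with library totals and 8 with the 2 groups compared alone. DNA replication genes did not share the change in spheres, with 1 of 38 rises and 2 falls, against 9 falls without wt C, 8 falls and 0 rises without both C libraries, and 3 rises without wt A, without wt B or with library totals. Among 27 p53 targets 9 rose and 3 fell, and with library totals 14 rose. In the EGFR family and its ligands 6 of 15 rose and 3 fell, in the IGF system 4 of 14 rose and 5 fell, and among ERK feedback genes 3 of 24 rose and 4 fell, with 5 rises under library totals. IGFBP7, a further secreted IGF-binding protein, had 80.6, 84.5 and 64.8 CPM in KOd spheres and 443, 447 and 363 CPM in wt spheres (-2.45).

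Ribosomal protein genes and respiratory chain genes leaned in opposite directions, by small amounts. Of 43 respiratory chain subunits 18 rose and 0 fell (median 0.19). Their summed RNA was 6104, 6811 and 6447 CPM in KOd spheres and 5334, 5265 and 5618 CPM in wt spheres, with no overlap. NDUFV1, a core subunit of complex I, had 145, 133 and 149 CPM in KOd spheres and 90.2, 76.7 and 89.2 CPM in wt spheres (0.74), UQCRC2 of complex III rose by 0.54 and ATP5F1B, the catalytic subunit of ATP synthase, by 0.53. With library totals 33 rose, and without KOd B 1 fell. Of 44 cytosolic ribosomal protein genes 13 fell and 0 rose (median -0.29). Their sum was 21122, 23247 and 26734 CPM in KOd spheres and 25696, 24618 and 37026 CPM in wt spheres, so the groups overlapped and wt C stood far above. With the replicate letter as a block in KOd 3D and wt 3D 33 fell. The number of falls was 2 without KOd A or wt C, 5 without KOd B, 26 without KOd C, 25 without wt A, 31 without wt B, 4 with library totals and 1 with the 2 groups alone.

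**Figure D4:**
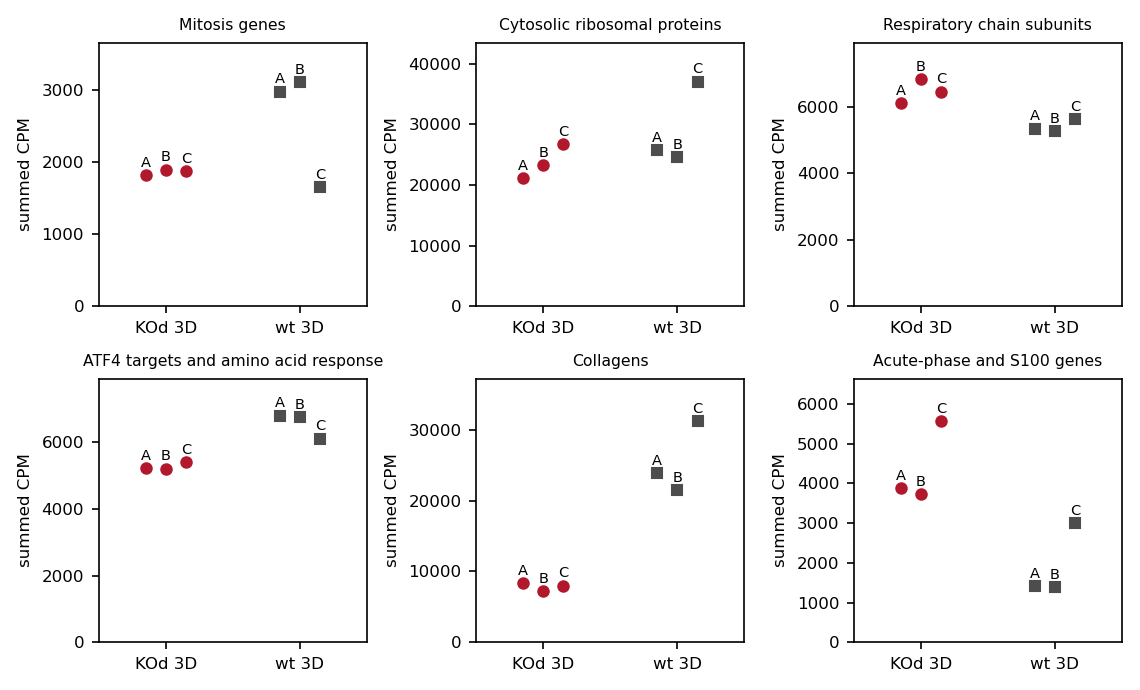
Summed CPM of all tested members of 6 lists in each tumorsphere library (KOd 3D left, wt 3D right; each point is 1 library, marked by its letter). The groups lie apart for collagens (8342 at most in KOd, 21480 at least in wt) and respiratory chain subunits, whereas for mitosis genes wt C lies below all KOd libraries and for ribosomal proteins the groups overlap.

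Stress pathways moved differently in the 2 culture conditions. ATF4 is a transcription factor translated when amino acids run short or the endoplasmic reticulum is stressed, and it turns on amino acid transporters, tRNA synthetases and serine synthesis. In spheres 3 of its 40 listed targets rose and 15 fell (median -0.16), whereas in adherent cells 37 of 40 rose and 0 fell (median 1.64). Over all genes 22.1% rose and 22.5% fell in adherent cells, which is the background for the adherent counts of every list. ASNS, asparagine synthetase, had 10.3, 11.8 and 9.56 CPM in KOd spheres and 14.8, 17.8 and 13.3 CPM in wt spheres, a little lower without overlap (-0.54, adjusted p = 0.038). This call was lost with library totals, under limma-voom and without KOd A, KOd C, wt A or wt B, where the adjusted p reached 0.17. In adherent cells ASNS rose by 2.94. TRIB3, a pseudokinase induced by ATF4, did not pass in spheres (0.24, adjusted p = 0.11, and 0.025 with library totals) and rose by 3.75 in adherent cells. PHGDH, the first enzyme of serine synthesis, had 10.9, 11.8 and 11.8 CPM in KOd spheres and 37.6, 34.8 and 46.6 CPM in wt spheres (-1.79), and it rose by 1.72 in adherent cells. SLC7A1, a transporter of cationic amino acids, had 114, 103 and 105 CPM in KOd spheres and 304, 292 and 227 CPM in wt spheres (-1.36). ATF4 RNA itself changed by -0.54, and ATF3, a related factor, was among the rises at 1.10. The summed RNA of the list was 5215, 5195 and 5394 CPM in KOd spheres and 6781, 6742 and 6093 CPM in wt spheres. Without wt A 9 of the targets fell, with library totals 8 fell and 7 rose, and without both C libraries 1 rose. The difference between cultures, KOd against wt in 3D minus in 2D, passed as lower in 38 of the 40 and as higher in 0, where 14.7% of all genes passed as lower.

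Of the 34 ATF4-list genes with a RefSeq promoter window in GRCh38.p14, 9 hold the core of the C/EBP-ATF response element, TGATGNAA, on either strand, against 1.95% of the windows of all tested genes. The 9 are AARS1, ASNS, ATF3, CARS1, CHAC1, MARS1, NARS1, SLC3A2 and SLC7A1. The window of ASNS (minus strand, chr7:97872359-97872658) is shown since its match lies where the amino acid response of this gene is known to act, with the match in capitals, 68 bases before the annotated start.
ASNS: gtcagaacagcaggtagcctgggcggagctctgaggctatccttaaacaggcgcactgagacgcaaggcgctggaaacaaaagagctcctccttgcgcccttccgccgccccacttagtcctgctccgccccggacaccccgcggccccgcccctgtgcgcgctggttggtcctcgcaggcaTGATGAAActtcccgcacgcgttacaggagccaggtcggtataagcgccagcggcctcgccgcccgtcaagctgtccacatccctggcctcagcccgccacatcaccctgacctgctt
A match is a description of the letters and not evidence of binding in these cells.

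Other stress lists also differed by culture. Of 25 cytosolic heat shock chaperones 3 rose and 2 fell in spheres, against 1 rise and 19 falls in adherent cells. HSPA8, the constitutive chaperone, stood at -0.08 in spheres and changed by -2.78 in adherent cells. In 3D minus 2D 18 of the 25 passed as higher, where 14.4% of all genes did. With library totals 7 chaperones rose in spheres and 1 fell, and 1 fell without KOd B. Of 34 glycolysis and hypoxia genes 6 rose and 10 fell in spheres, against 3 rises and 26 falls in adherent cells. LDHA, lactate dehydrogenase A, stood at 0.02 in spheres. CA9, the carbonic anhydrase most used as a hypoxia marker, had 0.244, 0.288 and 1.19 CPM in KOd spheres and 2.36, 1.61 and 27.3 CPM in wt spheres, where wt C was high (-4.21). Without wt C CA9 changed by -1.83 (adjusted p = 0.048), and under limma-voom it did not pass (adjusted p = 0.063). Without KOd C or with library totals 6 of these genes fell. Of 26 unfolded protein response and ER chaperone genes 3 rose and 11 fell in spheres, against 11 rises and 8 falls in adherent cells, and 6 fell in spheres with library totals. Of 32 NRF2 targets and redox enzymes 6 rose and 0 fell. With the replicate letter as a block 10 NRF2 targets rose and 1 fell, with library totals 15 rose, without KOd C 1 fell and without wt B 2 fell. SQSTM1, an autophagy receptor and NRF2 target, had 2133, 2111 and 1649.8 CPM in KOd spheres and 982, 910.1 and 827 CPM in wt spheres, a rise of 1.12. It was counted in the lysosome and autophagy list, where 7 of 30 rose and 7 fell.

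Taking all genes, the effect of KOd differed between spheres and adherent cells about as often as it was found in spheres. In adherent cells KOd against wt called 7280 genes, 44.6%, with 3611 rises (22.1%) and 3669 falls (22.5%). The test of the difference, 3D minus 2D, called 4751 genes, 29.1%, with 2347 positive (14.4%) and 2404 negative (14.7%). No library is shared between the comparisons of the 2 cultures. Both called 2961 genes. Of these 2396 moved in the same direction, 1046 up and 1350 down, which is 43.2% of the sphere calls and 32.9% of the adherent calls, and 565 moved in opposite directions. Across the 16323 genes the 2 sets of log2 fold changes had a Pearson correlation of 0.491 and a Spearman correlation of 0.363, given as a description since genes are not independent and 2D and 3D share the pools.

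Among genes whose log2 CPM averaged 2 or more over the 12 libraries of both cultures, the largest positive differences were those of SAA1, SAA2, SAA2-SAA4, ENDOD1, SPP1 and the pseudogene CES1P2. SPP1, the secreted phosphoprotein osteopontin, had 138, 169.7 and 59.9 CPM in KOd spheres and 15.9, 14.3 and 11.2 CPM in wt spheres (3.15), and it did not pass in adherent cells (-0.76), a difference of 3.91. ENDOD1, an endonuclease-domain protein, rose by 1.48 in spheres and changed by -2.44 in adherent cells. At the other end of these genes, LGR6, an R-spondin receptor, had 35.6, 32.8 and 49.6 CPM in KOd spheres and 125, 119 and 146 CPM in wt spheres (-1.72), and it rose by 3.20 in adherent cells, a difference of -4.93 with an adjusted p of 6.9e-05. GDF15, a secreted cytokine of cell stress, had 137, 132 and 106 CPM in KOd spheres and 73.3, 64.5 and 54.4 CPM in wt spheres, a rise of 0.96 against one of 5.83 in adherent cells. CPE, carboxypeptidase E, had 14, 15.4 and 28.5 CPM in KOd spheres and 78.1, 79.7 and 224 CPM in wt spheres (-2.72), against a rise of 1.70 in adherent cells. UNC5B, LSP1 and ST6GALNAC3 had differences of -4.61, -4.39 and -4.12. The fall of matrix genes was seen in both cultures, with 16 of 26 collagens lower in KOd 2D, and was larger in spheres for COL1A1 (a difference of -1.76, adjusted p = 0.00019) and COL12A1 (-2.53, adjusted p = 0.00065) and smaller for COL4A1, which changed by -5.84 in adherent cells.

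**Figure D5:**
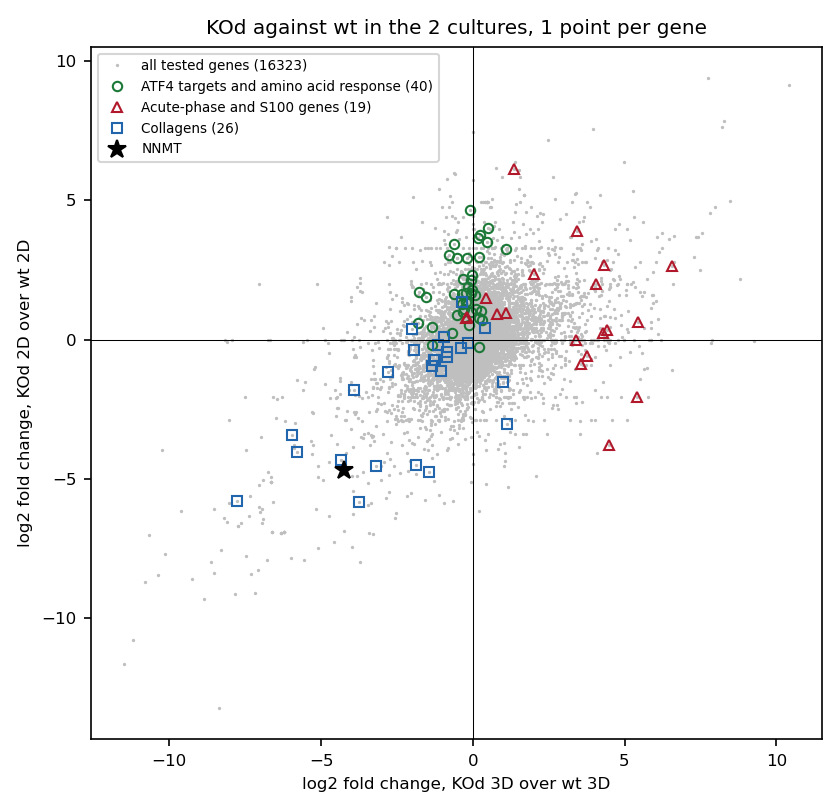
Log2 fold change of KOd 3D against wt 3D (horizontal axis) and of KOd 2D against wt 2D (vertical axis) for 16323 genes, with 40 ATF4 targets, 19 acute-phase and S100 genes and 26 collagens marked and NNMT as a star. Most ATF4 targets lie above 0 on the adherent axis and near or below 0 on the sphere axis, most acute-phase genes lie far to the right, most collagens lie below 0 on both axes, and NNMT is at -4.26 in 3D and -4.68 in 2D.

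Some genes were close to on in one group and off in the other. With a limit of 0.1 CPM in every library of one group and at least 2 CPM in every library of the other, 20 genes were near-silent in KOd spheres and 12 in wt spheres. These genes were chosen by these values, which are given as a description. BEX1, a small adaptor-like protein encoded on the X chromosome and lost in several cancers, had 1, 1 and 0 reads in KOd spheres, at most 0.0319 CPM, and 80.0, 82.9 and 55.8 CPM in wt spheres. The neighbouring family member BEX3 had 0, 0.0319 and 0 CPM in KOd spheres and 33.9, 31 and 38.5 CPM in wt spheres. MEG3, an imprinted long non-coding RNA, had 0, 0.0319 and 0 CPM in KOd spheres and 27.6, 27.2 and 3.1 CPM in wt spheres, with C low. HEYL, a Notch-responsive repressor, had 0.0306, 0.0319 and 0.0701 CPM in KOd spheres and 10.9, 10.7 and 17.7 CPM in wt spheres. THBS2, the matricellular protein thrombospondin 2, was at or below 0.035 CPM in KOd spheres and at or above 5.68 CPM in wt spheres. For 5 genes no read was found in any KOd library, and a floor of 3 reads over the group makes TMEM132D at least 215-fold lower, CCDC91 at least 194-fold, HS6ST3 at least 145-fold, CYP7B1 at least 94.4-fold and ZNF239 at least 74.1-fold lower in KOd spheres. TMEM98 was also near-silent in KOd.

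The reverse pattern was led by LHFPL3, a tetraspan-like membrane protein, with 20.5, 19.1 and 22.1 CPM in KOd spheres and 0.0323, 0 and 0 CPM in wt spheres. JAM3, a junctional adhesion molecule, had 15.6, 17.6 and 12.4 CPM in KOd spheres and 0.0969, 0.0336 and 0 CPM in wt spheres. NAP1L2, a nucleosome assembly protein, had 3.48, 3.61 and 3.01 CPM in KOd spheres and at most 0.0672 CPM in wt spheres. ACAN, the cartilage proteoglycan aggrecan, had no read in wt spheres and was at least 70.9-fold higher in KOd spheres. In adherent cells ACAN had 2.56, 2.79 and 1.73 CPM in wt and 2.37, 2.48 and 2.00 CPM in KOd. Its absence from wt was thus found in spheres and not in adherent cells. PIK3AP1, a signalling adaptor, LHFPL3-AS2, and the zinc-finger genes ZNF91, ZNF883 and ZNF300 completed those named. A gene that is off in the bulk wt population and on in an oligoclonal pool, or the reverse, was not followed by clone, since the clones were pooled before sequencing.

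The promoters of BEX1 and LHFPL3 are shown as examples of each direction, from RefSeq in GRCh38.p14, 5′ to 3′ on the gene's strand, with CpG dinucleotides in capitals. The window of BEX1 is chrX:103064122-103064421 on the minus strand, and that of LHFPL3 is chr7:104328353-104328652 on the plus strand.
BEX1: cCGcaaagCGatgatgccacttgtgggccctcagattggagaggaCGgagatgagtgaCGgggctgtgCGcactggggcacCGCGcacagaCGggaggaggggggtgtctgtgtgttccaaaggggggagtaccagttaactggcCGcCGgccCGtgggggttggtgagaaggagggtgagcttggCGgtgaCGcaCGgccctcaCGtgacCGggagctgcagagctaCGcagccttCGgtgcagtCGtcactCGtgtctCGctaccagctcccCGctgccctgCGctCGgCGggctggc
LHFPL3: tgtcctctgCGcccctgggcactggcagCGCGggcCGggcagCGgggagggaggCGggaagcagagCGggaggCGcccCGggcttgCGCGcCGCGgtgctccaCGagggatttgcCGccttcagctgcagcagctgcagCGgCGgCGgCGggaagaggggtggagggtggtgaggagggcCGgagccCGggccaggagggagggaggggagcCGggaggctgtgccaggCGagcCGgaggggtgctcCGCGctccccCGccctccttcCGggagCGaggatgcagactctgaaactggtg
BEX1 has 25 CpG, at a ratio of 0.769 to the number given by base composition, and LHFPL3 has 29, at 0.723. Of the 20 genes near-silent in KOd 13 had a window, with a median ratio of 0.603 and 7 at 0.6 or above. GAGE12E, GAGE12C and GAGE12H are among these 13, all with the same ratio of 0.444 and with nearly the same CPM in each sphere library. They were counted as separate genes although their reads may have been shared, which weighs on the median and on both counts. Of the 12 near-silent in wt 10 had one, with a median of 0.725 and 6 at 0.6 or above, and the median of all tested genes was 0.819. DNA methylation was not measured.

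Cancer-testis and imprinted genes, which are held by DNA methylation in normal tissue, moved in both directions. Of 18 cancer-testis genes 7 rose and 5 fell. MAGEC1 had 10.5, 10.5 and 11.9 CPM in KOd spheres and 171, 173 and 171 CPM in wt spheres, a tight separation (-3.97). MAGEA3 rose by 0.92, MAGEA6 by 0.94 and MAGEA12 by 0.89, and these 3 are near-identical copies whose reads may have been shared. Of 13 imprinted genes 2 rose and 4 fell, and MEST had 3.97, 5.56 and 4.69 CPM in KOd spheres and 44.9, 46.7 and 62.7 CPM in wt spheres (-3.44).

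Some stretches of chromosome moved together. In 284 windows of 10 Mb with at least 15 tested genes, the median log2 fold change of the window lay between -0.328 and 0.254 from the 5th to the 95th percentile. The lowest window was chromosome 13 from 30 to 40 Mb, where 27 of 37 genes fell and 0 rose (median -0.97), and this window also had a median of -0.57 in adherent cells. The windows of chromosome 13 at 20 to 30 Mb (24 of 46 fell, 10 rose, median -0.76) and at 110 to 120 Mb (20 of 32 fell, 11 rose, median -0.74), which holds F10, were next. The highest was chromosome X from 150 to 160 Mb, where 64 of 86 genes rose and 2 fell (median 0.78, and 0.39 in adherent cells). Chromosome 13 from 100 to 110 Mb had 17 rises and 1 fall of 21 genes (median 0.76), and chromosome 17 from 0 to 10 Mb had 128 rises and 2 falls of 193 (median 0.70, and 0.36 in adherent cells). DNA copy number was not measured in these libraries.

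Spheres of the KOs pool, edited in the same gene by another route, gave a direct contrast with KOd spheres under the same culture. NNMT was not lower in the libraries labelled KOs, with 84.8 ± 1.75 CPM (SD, n = 3) against the 98.4 ± 27.5 CPM of wt spheres, so the RNA does not check that label and any KOs direction below is that of the libraries labelled KOs. The guide of KOs lies at the start site, and loss of protein without loss of RNA cannot be seen here. KOd 3D against KOs 3D called 7710 genes, 47.2%, with 3907 higher in KOd (23.9%) and 3803 lower (23.3%). Against the shared wt 3D libraries KOs 3D had 9190 calls, 56.3%. Several large changes of KOd were also found there. F10 changed by -13.6, IGFBP3 by -9.78 and CADM1 by -11.4. Of 26 collagens 20 fell and 5 rose, and of 19 acute-phase and S100 genes 16 rose and 2 fell. Window medians were -1.45 at 30 to 40 Mb of chromosome 13 and 0.88 at 150 to 160 Mb of X. They were 1.12 at 0 to 10 Mb of chromosome 17 and 0.060 at 100 to 110 Mb of chromosome 13. Both differences use the same wt libraries and are not independent. The KOs libraries were deeper, with 37316513 to 39944290 reads, and had less ribosomal RNA, at 1.45 to 1.88%. Among acute-phase genes SAA1 stood at 66.1 CPM on average in KOd spheres and 518 CPM in KOs spheres (-2.97), and S100A9 at 711 CPM in KOd spheres and 922 CPM in KOs spheres, which did not pass (-0.37, adjusted p = 0.19). DCN averaged 4.16 CPM in KOd spheres and 132 CPM in KOs spheres (-4.98), and COL1A1 77.7 CPM in KOd spheres and 31.8 CPM in KOs spheres (1.29). JAM3 averaged 15.2 CPM in KOd spheres and 0.0249 CPM in KOs spheres, and LHFPL3 20.6 CPM in KOd spheres and 0.363 CPM in KOs spheres. The high level of JAM3 and LHFPL3 thus set KOd apart from both other sphere groups. Genes near-silent in KOd spheres were mostly low in KOs as well. All but TMEM98 were at or below 0.426 CPM in every KOs sphere library. Mitosis genes were lower in KOd than in KOs in 34 of 36 and higher in 0, and DNA replication genes were lower in 35 of 38 and higher in 0. KOs itself lay above wt spheres in these lists. Against wt, KOs had 30 rises and 0 falls among mitosis genes (median 0.67), where KOd had 0 rises and 21 falls. Among DNA replication genes KOs had 34 rises and 2 falls (median 0.93), where KOd had 1 rise and 2 falls.

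Markers of other cell types moved with the group in some cases. The summed RNA of 19 leukocyte markers was 374, 378 and 282 CPM in KOd spheres and 779, 793 and 716 CPM in wt spheres, most of it LCP1, an actin-bundling protein also expressed by carcinoma lines, and 11 of the 19 were under 1 CPM in every library. The sum of 12 endothelial markers was 101, 105 and 109.7 CPM in KOd spheres and 58.7, 61.8 and 80.6 CPM in wt spheres, with 8 of them under 1 CPM. Most of that sum was PECAM1, at 89.7, 92.1 and 97.1 CPM in KOd spheres and 50.4, 54.6 and 73.1 CPM in wt spheres. PECAM1 rose, but not without KOd A, KOd B, KOd C, wt A or wt B, or without both C libraries (adjusted p of up to 0.15). For 14 neural markers the sum was 125, 120.0 and 123 CPM in KOd spheres and 217, 190.4 and 209 CPM in wt spheres, with 11 under 1 CPM. Most of it was TUBB3, at 103, 97.6 and 103 CPM in KOd spheres and 196, 169 and 186 CPM in wt spheres. For 8 adipocyte markers the sum was 93.1, 79.5 and 110.1 CPM in KOd spheres and 12.3, 9.37 and 20.2 CPM in wt spheres. Nearly all of that was the lipid droplet protein PLIN4, at 87.6, 74.1 and 105 CPM in KOd spheres and 10.5, 7.66 and 18.7 CPM in wt spheres (2.86), while 4 of the 8 were under 1 CPM. The part of these markers in the results above was not tested.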

How the data were processed

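Libraries were grouped by the condition in their titles. Per the labels' protocols, mRNA was sequenced from stranded TruSeq libraries, and per the submitters' processing notes reads were aligned with STAR to hg38. The counter, strand setting and annotation are not given in the sources used here, so reads of antisense, overlapping or near-identical genes may have been shared. The authors deposited raw read counts per Entrez gene. Of 27864 identifiers 27740 were matched to symbols through the RefSeq table.

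All 20 libraries in 7 groups were fitted with edgeR 4.0.16 in R 4.3.3: genes filtered by filterByExpr, TMM scaling, and the quasi-likelihood test with 13 residual degrees of freedom, a biological coefficient of variation of 0.143 and Benjamini-Hochberg adjustment over 16323 genes. The fit was tested on simulated data. The depth limits single genes with few reads, and floors cover counting error only. Alternatives were RLE factors, library totals, other filters, DESeq2 1.42.0, limma-voom 3.58.1, the groups alone, a replicate block, libraries left out and stricter thresholds. The reported fit did not pair libraries. Only the replicate block took letters to pair KOd 3D with wt 3D, where deviations from the group means correlated at 0.210, 0.218 and 0.342 for A, B and C. KOd A correlated with wt B as well, at 0.208, and no label says what a letter marks.

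Members and lists were chosen with earlier results of these data known. Named genes are NNMT and its neighbours within 1 Mb, the 12 largest rises and falls whose log2 CPM averaged 2 or more, the first 2 and up to 3 further genes of each list by p, up to 8 near-silent genes a direction, and the 6 largest differences between cultures a direction under the same expression limit over 12 libraries. Other members, among them TGFB2, TGFB3, COL4A1, WNT3, SFRP1, IL1RN, the MHC class II genes and interferon-stimulated genes beyond these, were named after their values were seen. Values of a few listed genes are not reported here.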

Additional observations from a re-analysis of the deposited data

Results flagged for a closer look

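The difference between cultures, KOd against wt in 3D minus KOd against wt in 2D, was tested gene by gene for the 24 genes with the largest changes in spheres, and across all genes it passed in 4751. Among the large falls it passed, on the log2 scale, for IGFBP3 (-3.48), COL12A1 (-2.53), COL1A1 (-1.76), OLFML3 (-3.27), LOX (-1.97) and LEF1 (-2.42), each of which had fallen more in spheres than in adherent cells or had not passed there. IGFBP3 averaged only 0.971 CPM in wt 2D and 0.0574 CPM in KOd 2D, which left little room for a fall there. LOX cross-links the collagens that COL1A1 and COL12A1 encode. Among the large rises it passed for AQP9 (3.56), BACE2 (4.07), SAA2 (4.08), SAA2-SAA4 (4.04), SAA1 (4.04), MAOA (2.28), ARSD (2.18) and CES1 (3.41). S100A9 had a difference of 4.79 that did not pass (adjusted p = 0.064). CES1 averaged 0.276 CPM in KOd 2D and 0.224 CPM in wt 2D, and S100A9 0.0805 and 0.0508 CPM. Both genes were nearly absent from adherent cells, so their differences hardly measure a response to KOd in 2D. Medium and attachment changed together between the cultures, and their parts cannot be told apart.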

How the results depend on the processing

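In KOd 3D against wt 3D the count of 5548 ranged from 4445 to 5370 when 1 library was left out and from 4743 to 6012 under other settings of the fit, and 2113 passed with at least a 2-fold change. The replicate block in KOd 3D and wt 3D gave 6012 and in all groups 5590. The block took the call from 0 of the named genes and added 3. It changed the counts of ribosomal protein and NRF2 genes as given with them. Without both C libraries 5035 passed, 4467 of them shared. For 3D minus 2D the count of 4751 ranged from 3900 to 4713 with 1 library left out. It was 2822 at an adjusted p under 0.01, 1800 with at least a 2-fold difference and 5147 with the block. For KOd 3D against KOs 3D the count of 7710 ranged from 6483 to 7198 with 1 library left out, and 2639 passed with at least a 2-fold change. The letters do not pair these groups. NNMT stayed between -4.39 and -3.997 with 1 library left out. Of 227 called named genes other than NNMT 197 kept direction and call under all alternatives run, 30 lost the call under at least 1 and 0 changed sign. Interferon-stimulated genes had 12 rises with the 2 groups alone. Where a cause of such a change is not given by the setting, the cause was not tested.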

Other observations

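Lipid and adhesion genes not described above moved little or in both directions in spheres. Of 32 sterol and fatty acid synthesis genes 1 rose (2 with library totals or with the 2 groups alone) and 1 fell, against 1 rise and 11 falls in adherent cells. Of 15 cadherins and junction genes 3 rose and 5 fell. CLDN1, a tight junction claudin, rose by 1.77, whereas the mesenchymal cadherin CDH2 changed by -0.66 and CDH6 by -2.91. Of 16 basal markers 3 rose and 5 fell, with NGFR, a neurotrophin receptor of basal cells, at 44.6, 37.2 and 113 CPM in KOd spheres and 2.87, 2.59 and 13.2 CPM in wt spheres. Without KOd B 5 basal markers rose, with library totals 6, and without KOd A, KOd B or wt C 3 fell. Of 13 simple keratins and luminal markers 6 rose and 1 fell, with 2 falls without KOd C. Among 14 breast stem cell markers 4 rose and 2 fell, with 2 rises without both C libraries and 7 with library totals, and ALDH1A3, the aldehyde dehydrogenase behind much of the enzyme activity used to sort such cells, rose by 4.42. Of 16 glucocorticoid receptor targets 5 rose and 3 fell, with 3 rises without KOd A or with the 2 groups alone and 2 without wt A or wt B. Of 10 metallothioneins 0 rose and 2 fell, with 1 fall without KOd A, KOd B or wt C or under limma-voom.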
